A study of Homo sapiens with 6 samples.

Results

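The calcium branch of non-canonical Wnt signaling was examined in MDA-MB-231 cells through 10 genes, of 57445 in the expression table. The rule took the genes by symbol and used no measured value, although the set was drawn up with earlier results of these data known. They were the calcium-responsive transcription factors NFATC1, NFATC2, NFATC3 and NFATC4, their relative NFAT5, the calcineurin catalytic subunit PPP3CA, the protein kinase C (PKC) genes PRKCA and PRKCD, and the calmodulin-dependent kinase II (CaMKII) genes CAMK2D and CAMK2G. MDA-MB-231 is an established invasive breast cancer line without estrogen and progesterone receptors. Both groups of 3 libraries were made from this line after lentiviral delivery of a pGIPZ vector at a MOI of 5.0 and selection with 2 µg/ml puromycin. The shCTL group carried a control vector and the shRor1 group a hairpin against the receptor ROR1. The comparison asks which transcripts differ when this receptor of non-canonical Wnt ligands is targeted.

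The control was named in different ways by its sources. The sample labels call it an empty vector, whereas the paper's text and the series design describe a control hairpin, and DMSO appears in the header of the 3 control columns but not in that of the shRor1 columns. A difference of vector or solvent cannot be told apart from the hairpin. A single hairpin was used against ROR1, so effects on other transcripts cannot be told apart from those through ROR1 either. No source says that the libraries came from separate cultures, and p-values therefore measure the spread between these libraries, which may be technical. Library numbers below follow the order of columns in the table and pair nothing between the groups.

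In the calcium branch, binding of a Wnt ligand to a Frizzled receptor, often with a ROR or RYK co-receptor, activates G proteins and phospholipase C, which releases calcium from internal stores. Calcium bound to calmodulin switches on CaMKII and calcineurin, while calcium together with diacylglycerol activates conventional PKC. Calcineurin removes phosphates from NFATC proteins, which then enter the nucleus and bind DNA at a GGAAA core. These steps act on proteins, so the transcript levels reported here describe which parts were present and not how active they were.

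To show what the NFAT core looks like at genes of this branch, the 250 bases before annotated start sites were searched for GGAAA and for TTTCC, the same letters on the opposite strand. The windows came from RefSeq on GRCh38.p14, a later build than the GRCh37 of the expression table. At least 1 match was found in 55.6% of all 35116 windows of this length, at least 3 in 7.12% and at least 4 in 1.87%. Of the 10 genes, 8 had windows in the RefSeq table, 14 in all, and 4 of these windows, from NFATC1, NFATC2 and NFATC4, held a match. For illustration, 3 windows with many matches are shown, 5′ to 3′ on the gene strand and with the matches in capitals. NFATC2 had the most matches among the 10 genes, 3 in 1 of its 2 windows (chr20:51562840-51563089, minus strand). RCAN1 encodes a calcineurin inhibitor whose internal promoter is a textbook target of NFAT, and 1 of its 6 windows held 4 matches (chr21:34526823-34527072, minus strand). PTGS2, which encodes cyclooxygenase 2 and is a known NFAT target in breast cancer cells, had 4 matches in its only window (chr1:186680424-186680673, minus strand). A match of 5 letters is a description and not a binding site.
NFATC2: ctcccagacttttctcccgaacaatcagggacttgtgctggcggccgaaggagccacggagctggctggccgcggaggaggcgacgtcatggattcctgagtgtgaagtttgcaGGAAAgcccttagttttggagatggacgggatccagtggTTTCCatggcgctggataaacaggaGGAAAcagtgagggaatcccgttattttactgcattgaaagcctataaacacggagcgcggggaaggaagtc
RCAN1: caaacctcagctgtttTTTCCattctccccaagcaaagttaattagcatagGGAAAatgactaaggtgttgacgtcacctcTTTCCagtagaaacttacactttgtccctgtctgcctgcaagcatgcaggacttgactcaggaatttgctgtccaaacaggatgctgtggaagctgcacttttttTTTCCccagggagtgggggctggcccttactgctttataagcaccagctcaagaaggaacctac
PTGS2: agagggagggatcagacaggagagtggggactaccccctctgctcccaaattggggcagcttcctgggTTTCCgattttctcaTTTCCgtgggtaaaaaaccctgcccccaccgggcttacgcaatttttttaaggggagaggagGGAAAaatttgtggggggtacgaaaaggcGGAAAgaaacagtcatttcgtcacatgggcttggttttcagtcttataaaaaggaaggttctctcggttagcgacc

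Values were in TPM, a transcript abundance that is scaled for transcript length and so that each library sums to 1000000. The table holds no read counts, and the mapped read totals stated in the paper could not be tied to single columns, so no counting interval is given. A level of 1 TPM was reached by 16036 to 16597 genes per shCTL library and by 16317 to 17033 per shRor1 library. The top 50 genes took 19.2% to 20.7% of the TPM of a library. All 6 line markers (VIM, CD44, EGFR, AXL, CAV1 and MSN) passed the filter, with a summed level of 4173 to 4392 TPM in shCTL and 4225 to 4646 TPM in shRor1. Of 6 luminal markers, 4 passed the filter (EPCAM, FOXA1, GATA3 and CDH1), and the summed level of the 6 was 23.8 to 24.5 TPM in shCTL and 22.6 to 26.9 TPM in shRor1. The hormone receptor genes ESR1 and PGR stayed at or below 0.21 TPM and 0.01 TPM. None of the 4 leukocyte and none of the 5 neuron markers passed the filter.

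The targeted gene was examined first. ROR1 was at 15.42, 13.49 and 20.56 TPM in shCTL against 9.34, 11.93 and 14.85 TPM in shRor1. The groups overlapped, since the third shRor1 library lay above the second shCTL library. On the log2(TPM + 1) scale the difference, shRor1 minus shCTL, was -0.43 (SE 0.20, 95% interval -0.88 to 0.03). The unadjusted limma p was 0.0649, and the adjusted p with the Benjamini-Hochberg method was 0.984. The exact permutation test, two-sided, gave p = 0.2, and 3 against 3 libraries cannot give less than 0.1. Without the third shCTL library the difference was -0.26. A lower ROR1 level therefore did not pass the test at the transcript level, and the groups below are named by their labels. The paper presents the knockdown in these cells by Western blot, which measures the protein and was not examined here.

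All 10 genes of the branch were detected and tested, that is, they reached at least 1 TPM in at least 3 libraries. Their mean levels over the 6 libraries spanned a ratio of 17.4, from 3.42 TPM for NFATC1 to 59.5 TPM for PRKCA. PRKCA stood at percentile 82.3 of the 16554 tested genes and NFATC1 at percentile 26.1. The kinases and the phosphatase were at the top of this order and the transcription factors at its bottom. After PRKCA came CAMK2G (48.0 TPM), PPP3CA (35.5), PRKCD (29.6), CAMK2D (21.8), NFAT5 (17.1), NFATC3 (14.5), NFATC4 (6.93) and NFATC2 (5.54). Each gene lay above the next one within all 6 libraries, except that NFATC4 exceeded NFATC2 in 4 of 6. Across libraries, however, the ranges of several neighbors overlapped, namely PRKCA and CAMK2G, PRKCD and CAMK2D, CAMK2D and NFAT5, NFAT5 and NFATC3, and NFATC4 and NFATC2.

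**Figure D1:**
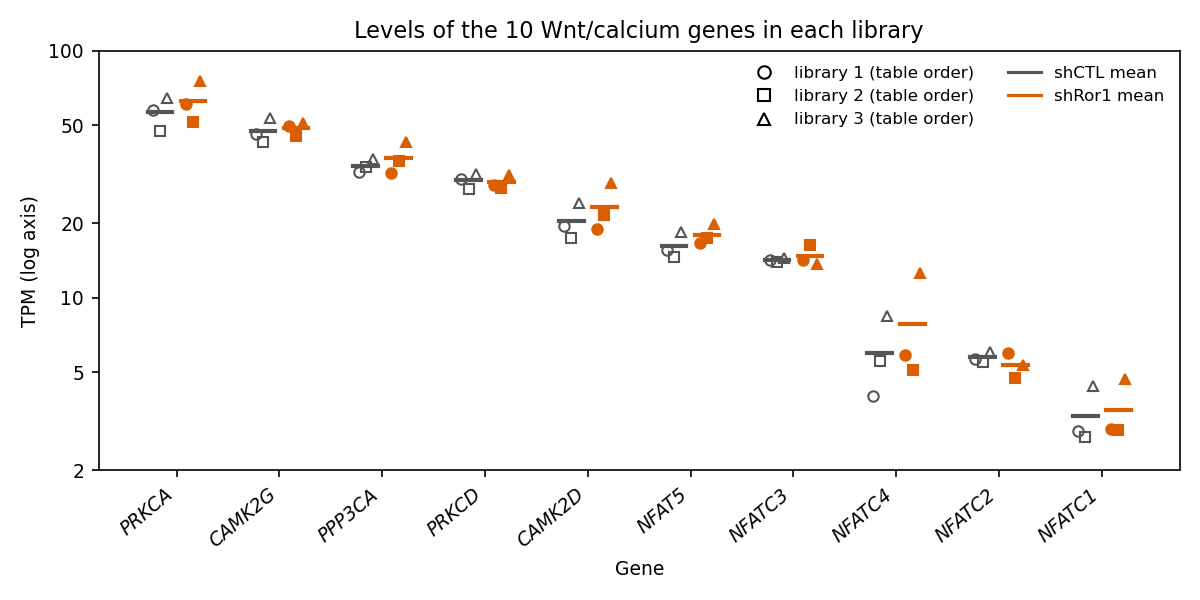
Level of each of the 10 genes in TPM (log axis) in the 3 shCTL and 3 shRor1 libraries, with a symbol for each library in table order (open for shCTL, filled for shRor1) and a bar for the mean of each group. The points of both groups overlap for every gene, and PRKCA, at 47.20 to 75.19 TPM, has the highest mean.

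No difference between shCTL and shRor1 passed the test for any of the 10 genes. By limma with Benjamini-Hochberg adjustment, 0 of 10 had an adjusted p below 0.05, where the share over all 16554 tested genes was 0%. An unadjusted p below 0.05 was reached by 0 of 10 genes, against 2.85% of all tested genes. The groups were separated in 0 of 10 genes, against 7.78% of all tested genes. The difference was positive for 8 genes, where 67.0% of all tested genes were positive, and negative for NFATC2 and PRKCD, with a median of 0.08 on the log2(TPM + 1) scale, beside 0.05 for all tested genes. The median size of the difference, without its sign, was 0.10 for the 10 genes and 0.09 for all tested genes. A p that misses the threshold does not show equal levels, and the intervals below give the differences that these libraries still allow.

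The calcium-responsive NFATC genes were expressed at low to middle levels. NFATC3, the most abundant of the 4, was at 14.19, 13.90 and 14.48 TPM in shCTL against 14.24, 16.31 and 13.75 TPM in shRor1. The shCTL libraries were close together and lay within the range of the shRor1 libraries. The log2 difference was 0.05 (SE 0.10, 95% interval -0.18 to 0.28; exact permutation p = 0.8). Its exons overlap on the same strand with 2 unnamed annotated genes, at 0.63 to 1.57 TPM and 0.71 to 1.33 TPM, and reads could be divided between them and NFATC3.

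NFATC4 varied most among the 10 genes. It was at 4.02, 5.54 and 8.45 TPM in shCTL against 5.86, 5.08 and 12.65 TPM in shRor1. The third library was the highest of each group, and the coefficient of variation was 37.5% in shCTL and 53.0% in shRor1. The log2 difference of 0.29 had an SE of 0.34 and a 95% interval of -0.50 to 1.09, which corresponds to 0.705-fold to 2.13-fold on the TPM + 1 scale (exact permutation p = 0.6). Its direction rested on the third shRor1 library, without which the difference was -0.07. Without the third shCTL library the difference was 0.53, with the sign unchanged.

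NFATC2 and NFATC1, both best known from activated T cells, were the least abundant. NFATC2 was at 5.67, 5.52 and 6.06 TPM in shCTL against 5.95, 4.73 and 5.32 TPM in shRor1, and the groups overlapped. Its log2 difference was -0.10 (SE 0.12, 95% interval -0.37 to 0.18; exact permutation p = 0.4). NFATC1 was at 2.88, 2.72 and 4.40 TPM in shCTL against 2.95, 2.92 and 4.67 TPM in shRor1. In both groups a single library, the third, stood above a pair of nearly equal ones. The log2 difference of NFATC1 was 0.06 (SE 0.21, 95% interval -0.43 to 0.54; exact permutation p = 0.5).

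NFAT5, which responds to osmotic stress and lacks the calcineurin-dependent control of the NFATC proteins, had the highest level of the NFAT genes. It was at 15.65, 14.64 and 18.43 TPM in shCTL against 16.64, 17.45 and 19.84 TPM in shRor1. Only the third shCTL library reached into the shRor1 range. The log2 difference was 0.14 (SE 0.12, 95% interval -0.13 to 0.41; exact permutation p = 0.3). Its unadjusted limma p of 0.262 was the smallest among the 10 genes, and the adjusted p with the Benjamini-Hochberg method was 0.984. NFAT5 shares exon sequence on its strand with an unnamed gene at 1.29 to 2.79 TPM.

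PPP3CA encodes the alpha form of the calcineurin catalytic subunit, the phosphatase that acts on NFATC proteins. It was at 32.33, 33.70 and 36.52 TPM in shCTL against 32.05, 35.89 and 42.73 TPM in shRor1. The lowest shRor1 library lay below all shCTL libraries and the highest above them. The log2 difference was 0.10 (SE 0.11, 95% interval -0.17 to 0.37; exact permutation p = 0.7).

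The 2 PKC genes differed from each other in their spread. PRKCA, a conventional isoform that needs both calcium and diacylglycerol, was at 57.61, 47.20 and 64.28 TPM in shCTL against 61.14, 51.62 and 75.19 TPM in shRor1. The spread among the libraries of a group (SD 8.61 in shCTL and 11.9 in shRor1) was larger than the difference of the means, 56.4 and 62.7 TPM. Its log2 difference was 0.14 (SE 0.16, 95% interval -0.23 to 0.51; exact permutation p = 0.5). Without the third shRor1 library it was 0.0066. PRKCD, an isoform activated by diacylglycerol without calcium, was at 30.16, 27.56 and 31.80 TPM in shCTL against 28.68, 27.88 and 31.35 TPM in shRor1. The shRor1 values all lay within the shCTL range, and the log2 difference was -0.02 (SE 0.09, 95% interval -0.23 to 0.18; exact permutation p = 0.8).

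CaMKII is a multi-subunit kinase whose gamma and delta subunits are found in many tissues. CAMK2G was at 46.01, 42.88 and 53.53 TPM in shCTL against 49.54, 45.14 and 51.11 TPM in shRor1. The shRor1 values lay within the shCTL range, and the log2 difference was 0.04 (SE 0.10, 95% interval -0.20 to 0.27; exact permutation p = 0.8). CAMK2D was at 19.57, 17.39 and 24.29 TPM in shCTL against 19.04, 21.68 and 29.09 TPM in shRor1. Only the third shRor1 library exceeded the shCTL range, and the log2 difference was 0.17 (SE 0.18, 95% interval -0.24 to 0.58; exact permutation p = 0.6). Without the third shRor1 library it was 0.0061. Except for NFATC4, the 95% intervals of these genes lay between 0.743-fold and 1.50-fold on the TPM + 1 scale.

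**Figure D2:**
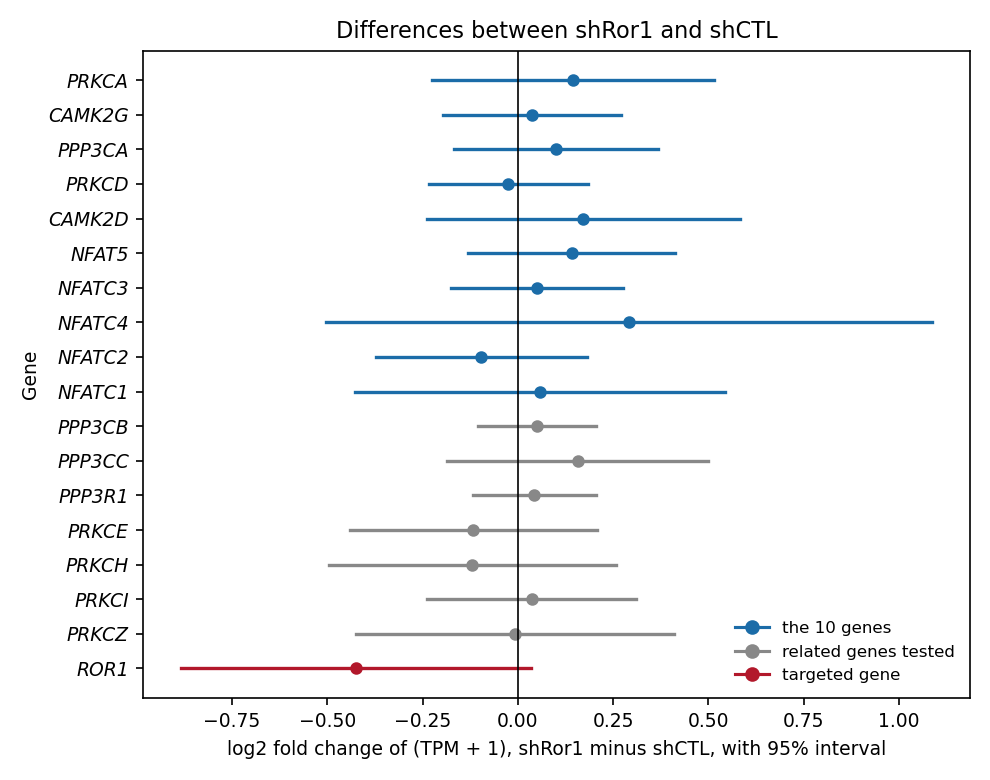
Difference in log2(TPM + 1), shRor1 minus shCTL, for the 10 genes (blue), 7 tested genes of the same families (gray) and the targeted gene ROR1 (red), with points for the estimate and lines for the 95% interval from limma. Every interval includes 0, and that of NFATC4, from -0.50 to 1.09, is the widest.

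The 10 genes also varied together by library. All 10 genes had their highest shCTL value in the third shCTL library, which held the highest value for 50.7% of all tested genes. In shRor1, 8 of 10 were highest in the third library, against 46.2% of all tested genes. The same 8 genes were highest in the third library of both groups, against 33.6%, and the exceptions were NFATC2 and NFATC3. The pattern was not particular to the 10 genes. Among their tested relatives, PPP3CB, PPP3CC, PRKCI and PRKCZ were also highest in the third library of both groups, while PPP3R1, PRKCE and PRKCH were not. The median deviation of the third library from its group mean was 0.18 on the log2 scale for the 10 genes in either group, and 0.05 for all tested genes. After median ratio scaling, which sets the typical gene equal between libraries, the third library was highest for 9 of the 10 genes in shCTL and 7 in shRor1, against 38.2% and 34.4% of all tested genes. After scaling, 7 of the 10 genes were highest in the third library of both groups, against 22.4% of all tested genes. These were NFATC1, NFATC4, NFAT5, PPP3CA, PRKCA, PRKCD and CAMK2D. The summed level of 4 markers of fibroblasts and endothelium (COL1A1, COL1A2, DCN and CDH5) was also highest in the third library of each group, at 16.2 TPM in shCTL (lowest 9.11) and 14.1 TPM in shRor1 (lowest 9.25). Most of this sum was COL1A1, at 13.87 and 11.15 TPM in the third libraries. DCN, the other marker that passed the filter, was lowest in the third shCTL library (0.76 TPM). CDH5, below the filter, was at 0.32, 0.52 and 1.47 TPM in shCTL against 0.34, 0.54 and 1.56 TPM in shRor1. COL1A2 stayed at or below 0.14 TPM, with its highest value also in the third library of each group. The summed levels of the 4 leukocyte and of the 5 neuron markers, none of which passed the filter, were also highest in the third library of each group. They were 1.38 and 2.71 TPM in the third shCTL library and 1.87 and 2.20 TPM in the third shRor1 library. The sums of the line markers and of the luminal markers were not highest there in both groups. The part of any of these markers in the pattern was not tested.

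**Figure D3:**
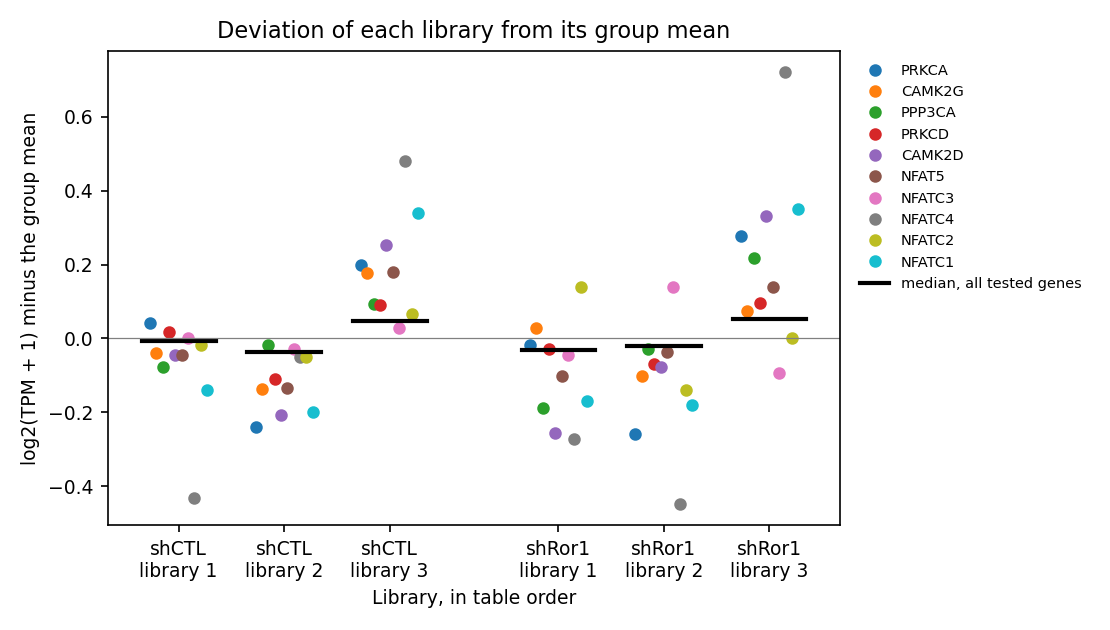
Deviation of each library from its group mean in log2(TPM + 1), for the 10 genes (colored points) and as the median of all tested genes (black bars), with libraries in table order. All 10 genes lie above 0 in the third shCTL library and 9 in the third shRor1 library, where NFATC3 lies below 0.

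The composition of each protein family was then compared, since TPM allows levels of different genes to be set side by side within a library. Among the NFAT genes, NFAT5 took 35.7% ± 1.16 (SD, n = 3) of the summed TPM in shCTL and 36.4% ± 1.13 in shRor1. NFATC3 took 31.4% ± 3.02 and 30.2% ± 5.38, so these 2 genes made up most of the family in either group. The share of NFATC4 ran from 9.48% in a shCTL library to 22.5% in a shRor1 library, with means of 13.0% and 15.4%. NFATC2 held 12.7% and 10.9%, and NFATC1 7.24% and 7.02%. The NFAT sum was 45.5 ± 5.46 TPM in shCTL and 49.5 ± 5.88 TPM in shRor1, a difference within the SD.

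PPP3CA was not the main calcineurin gene of these cells. PPP3CB, the beta form, took 54.8% of the catalytic transcripts in shCTL and 53.7% in shRor1, PPP3CA 37.3% and 37.8%, and the testis-enriched gamma form PPP3CC 7.88% and 8.44%. PPP3CB exceeded PPP3CA in every library. The regulatory subunit was supplied by PPP3R1, at a mean of 64.1 TPM in shCTL and 66.0 TPM in shRor1, while its testis form PPP3R2 stayed at or below 0.02 TPM.

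PRKCA was the most abundant of 8 PKC genes examined, with 34.4% ± 2.02 of their TPM in shCTL and 37.2% ± 2.20 in shRor1. It was followed by the atypical PRKCI (21.6% in both groups), PRKCD (18.3% and 17.6%) and PRKCE (14.8% and 13.4%). The conventional PRKCB, a leukocyte isoform, and the T cell isoform PRKCQ were near 0.

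CaMKII transcripts came almost entirely from the 2 genes chosen here. CAMK2G took 69.6% ± 1.13 in shCTL and 67.3% ± 4.26 in shRor1, and CAMK2D 29.8% ± 1.20 and 31.9% ± 4.21. The brain subunit CAMK2A stayed at 0.38 to 0.49 TPM. CAMK2B was at 0.02, 0.03 and 0.06 TPM in shCTL against 0.12, 0.07 and 0.19 TPM in shRor1. The groups of CAMK2B did not overlap, but the gene lay below the filter and was not tested. Of 12 other genes of the calcineurin, PKC and CaMKII families, 7 were tested, with log2 differences of -0.12 to 0.16. By limma, 0 of 7 had an adjusted or unadjusted p below 0.05, against 0% and 2.85% of all tested genes.

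**Figure D4:**
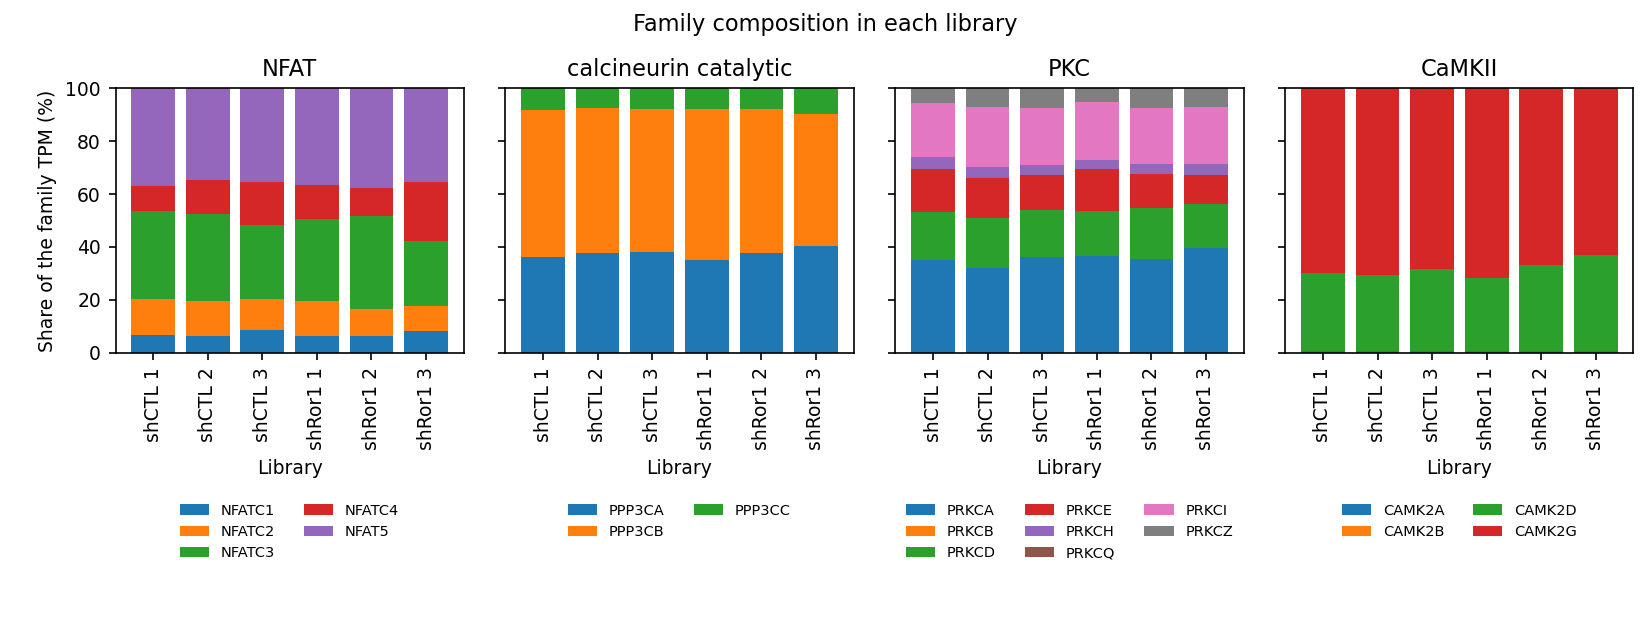
Share of the summed TPM of each family (NFAT, calcineurin catalytic subunits, PKC and CaMKII) taken by each gene, in percent, with a stacked bar for each library. NFAT5, PPP3CB, PRKCA and CAMK2G hold the largest share of their family in all 6 libraries, and NFATC4 reaches 22.5% of the NFAT sum in the third shRor1 library.

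The genes around this branch were counted by role, from lists of 94 genes outside the 10. Of these, 92 were in the table and 72 were tested, with 53 positive and 19 negative differences (67.0% of all tested genes were positive, but 50.5% after quantile normalization and 50.2% after median ratio scaling) and a median of 0.05 on the log2 scale, the same as the rounded median of all tested genes. None of the 72 had an adjusted p or an unadjusted p below 0.05 by limma, against 0% and 2.85% of all tested genes. The groups did not overlap for 4 of 72 genes (5.56%), against 7.78% of all tested genes. Named for this reason, after their values were seen, these were the calcium channel TRPC1 (log2 difference 0.20), the NFAT kinase DYRK1A (0.12), the CaMKII inhibitor CAMK2N1 (0.11) and the osmolyte transporter SLC5A3, a known target of NFAT5 (0.22). Each had an exact permutation p of 0.1, the smallest possible with 3 against 3.

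At the top of the cascade, 8 of 10 ligand and receptor genes were tested, with 4 positive and 4 negative differences. The most abundant were RYK, a Wnt co-receptor, at 58.3 TPM over all libraries, and the Frizzled receptor FZD6 at 51.5 TPM. Their log2 differences were 0.0011 (SE 0.07) and -0.03 (SE 0.11). Among 11 tested G protein and phospholipase C genes, 8 differences were positive and 3 negative. GNAI2 and GNB1, subunits of heterotrimeric G proteins, led in level, at 274 and 262 TPM. Their log2 differences were 0.0038 (SE 0.12) and -0.10 (SE 0.07).

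Genes of calcium handling included the largest difference on these lists. The calmodulin genes CALM2 and CALM3 were the most abundant, at 1620 and 413 TPM, with log2 differences of 0.13 (SE 0.10) and -0.0049 (SE 0.07). ORAI3, a store-operated calcium channel named after its values were seen, was at 3.39, 4.10 and 6.51 TPM in shCTL against 3.67, 8.74 and 11.12 TPM in shRor1. The first shRor1 library lay among the shCTL libraries, and the log2 difference of 0.57 had an SE of 0.36 and a 95% interval of -0.27 to 1.41 (exact permutation p = 0.3). Without the first shRor1 library it was 0.98, without the third 0.29. In all, 10 of the 15 tested genes of this list had positive and 5 had negative differences.

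Among 16 tested regulators of calcineurin, NFAT, PKC or CaMKII, 14 differences were positive and 2 negative. Of all tested genes, 67.0% were positive, but 50.2% after median ratio scaling, so the signs depend on scaling. CSNK1A1 and GSK3A, kinases that keep NFATC proteins phosphorylated, were the most abundant, at 207 and 52.7 TPM. Their log2 differences were 0.01 (SE 0.08) and -0.06 (SE 0.08). Among PKC substrates, all 4 tested genes had positive differences, and none passed the test. MARCKSL1, a membrane-bound PKC substrate, was at 36.34, 39.78 and 60.68 TPM in shCTL against 34.77, 52.32 and 93.14 TPM in shRor1, and was again highest in the third library of each group. Its log2 difference was 0.31 (SE 0.34), and that of ADD1, a cytoskeletal substrate, 0.04 (SE 0.10). AKAP12, a scaffold that binds PKC, had the smallest unadjusted limma p of all 72 genes, 0.0884, with a log2 difference of 0.26 (SE 0.13) and an adjusted p of 0.984. It is named for this value.

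No listed target of the NFAT factors passed the test. RCAN1, whose promoter window with 4 NFAT cores is printed above, was at 25.81, 24.60 and 25.83 TPM in shCTL against 25.76, 24.05 and 24.32 TPM in shRor1. The groups overlapped, and the log2 difference was -0.04 (SE 0.08, 95% interval -0.22 to 0.14). Levels were given per gene, so this value was not specific to transcripts that start at the printed window. PTGS2, the other target printed above, did not pass the filter. It was at 2.30, 0.68 and 0.62 TPM in shCTL against 4.48, 0.36 and 0.75 TPM in shRor1, with the first library highest in both groups. Of 10 NFATC targets, 5 were tested, and their log2 differences lay between -0.02 and 0.14. Their SEs ran from 0.10 to 0.32, and their 95% intervals reached from -0.62 to 0.90. The most abundant were CCND1, which encodes cyclin D1 (0.02, SE 0.10), and the transcription factor gene MYC (-0.02, SE 0.11).

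For NFAT5, 6 of 7 listed targets were tested, with 5 positive differences and 1 negative, where 67.0% of all tested genes were positive. SLC38A2, an amino acid transporter, was at a mean of 136 TPM in shCTL and 156 TPM in shRor1, with a log2 difference of 0.18 (SE 0.14). AKR1B1, the aldose reductase that makes sorbitol, was at 109 and 108 TPM (log2 difference -0.01, SE 0.08). S100A4, a calcium-binding protein tied to invasion and named after its values were seen, was at 2.42, 3.63 and 7.97 TPM in shCTL against 2.01, 5.31 and 12.74 TPM in shRor1. Its libraries spread more than the groups differed, with a log2 difference of 0.29 and an SE of 0.56.

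The 10 genes are protein-coding and lie on 8 chromosomes of GRCh37. NFATC1 spans chr18:77155856-77289325 and NFATC2 chr20:50003494-50179370. NFAT5 (chr16:69598997-69738569) and NFATC3 (chr16:68118654-68263162) share a chromosome, as do PPP3CA (chr4:101944566-102269435) and CAMK2D (chr4:114339210-114683083). NFATC4 spans chr14:24834879-24848810, PRKCA chr17:64298731-64806861, PRKCD chr3:53190025-53226733 and CAMK2G chr10:75572259-75634349. Exons of 6 of these genes overlap an annotated gene on the other strand. The library kit kept strand, but whether strand was used in counting is not given in the sources used here, so reads of such neighbors may have been included.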

How the data were processed

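RNA-Seq libraries of MDA-MB-231 cells (3 shCTL, 3 shRor1) had been prepared by the authors from 1000 ng RNA with a stranded kit and sequenced as single reads of 50 bp. Samples were grouped by their titles and matched to columns by the condition in the header. The submitters' processing notes name CASAVA 1.8.2, FastQC 0.10.0, STAR, RSEM 1.2.5, edgeR and GRCh37, and the study's methods name the Ensembl annotation. RNA is given as polyA by the molecule label and as total RNA by the library protocol.

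The deposited table is named for expected counts, but the authors' values are TPM, since every column sums to 1000000. RSEM divides reads that fit several genes, which affects overlapping genes and close paralogs. TPM carries no depth. Because TPM are not counts, the count model of the study was not applied. All sample columns were used (0 left out).

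Values were transformed to log2(TPM + 1). The test covered the 16554 of 57445 genes that reached 1 TPM in 3 or more libraries. It used limma 3.58.1 (R 4.3.3), with condition as the only term and an empirical Bayes trend, and p-values were adjusted by Benjamini-Hochberg over all tested genes with a threshold of 0.05. Fold changes are on this scale and understate changes of low genes. Single genes were also compared with an exact two-sided permutation test. The fit was tested on simulated data. No pair of libraries shared more than 0.483% identical values among tested genes, which gave no sign of a duplicate. Symbols came from GENCODE mapped to GRCh37, and 55022 identifiers matched.

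The 10 genes, the paralogs and the gene lists were chosen with earlier results of these data known. Of 131 listed genes, 3 (ORAI1, MARCKS and PECAM1) were not matched by identifier and are not analysed here. Always named were the 10 genes, ROR1 and the paralogs, and 2 genes of the original lists are not reported here. From each other pathway list the 2 genes of highest mean TPM were named, and any gene with an unadjusted p below 0.05. Cell type markers are named as checks of the line, outside this rule. Genes named for other reasons are marked, as are RCAN1 and PTGS2, chosen for their known regulation with values seen. Alternatives were a pseudocount of 0.1, no filter, a mean of at least 5 TPM, quantile normalization, median ratio scaling, no trend and each library left out. Leaving out the third column of both groups was added after the data were seen.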

Additional observations from a re-analysis of the deposited data

How the results depend on the processing

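No paired analysis was possible because headers are identical within a group and carry no replicate number. Of the 10 genes, CAMK2D, NFAT5, NFATC2 and PRKCA had 1 direction under all 13 alternatives, but with single libraries left out their log2 differences ran from 0.0061 to 0.30, 0.072 to 0.23, -0.16 to -0.026 and 0.0066 to 0.27. The other 6 changed sign in at least 1. Adjusted p of the 10 genes lay between 0.549 and 1. NFATC1 has no value at a mean of at least 5 TPM, which it did not reach. Over all tested genes, 0 passed the adjusted threshold of 0.05 by limma, and 0 to 1 did so with libraries left out singly (1 without the third shRor1 library). Without the third column of both groups, 1 passed. That gene, RPL39P3, named after its values were seen, was at 41.49, 38.37 and 41.68 TPM in shCTL against 0, 0 and 21.66 TPM in shRor1. The number with an unadjusted p below 0.05, 472, became 1363 without a filter, 227 at a mean of at least 5 TPM, and 278 to 1720 with single libraries left out (1720 without the first shRor1 library). Of these, 80.9% were higher in shRor1, but 53.9% after quantile normalization and 58.5% after median ratio scaling, when 6 of the 10 genes were positive.

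Median ratio scaling reversed CAMK2G (-0.023), NFATC3 (-0.0065), ADD1 (-0.023), CCND1 (-0.043), CSNK1A1 (-0.055), GNAI2 (-0.057), PPP3CB (-0.0093), PPP3R1 (-0.017), PRKCI (-0.023) and RYK (-0.059). Quantile normalization reversed NFATC1 (-0.040), NFATC3 (-0.031), PRKCI (-0.0059) and RYK (-0.027). Without the third column of both groups, GNAI2 (-0.015), RYK (-0.021), GSK3A (0.025) and MYC (0.021) reversed. Leaving out single libraries moved CAMK2G from -0.032 to 0.13, NFATC1 from -0.12 to 0.23, NFATC3 from -0.019 to 0.097, NFATC4 from -0.068 to 0.53, PPP3CA from -0.0092 to 0.19, PRKCD from -0.079 to 0.021, ADD1 from -0.030 to 0.11, AKR1B1 from -0.060 to 0.047, CALM3 from -0.041 to 0.031, CCND1 from -0.061 to 0.096, CSNK1A1 from -0.039 to 0.052, FZD6 from -0.13 to 0.066, GNAI2 from -0.10 to 0.089, MARCKSL1 from -0.058 to 0.64, MYC from -0.13 to 0.077, PRKCI from -0.052 to 0.14, PRKCZ from -0.16 to 0.13, RYK from -0.038 to 0.024 and S100A4 from -0.26 to 0.84. The cause of these changes was not tested. ROR1 kept its direction, at -0.58 to -0.26 with single libraries left out.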
